A study of Homo sapiens with 8 samples.

Results

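The comparison described here is elesclomol against vehicle in control SUDHL-4 cells, that is, the drug response of cells with their native level of FDX1. SUDHL-4 is an established human line of germinal-centre diffuse large B-cell lymphoma. Control cells, labelled wild type, received DMSO or 5 nM elesclomol (ES) and were collected at 48 h, with 2 libraries in each group and no other difference named in the labels, so that 4 of the 8 libraries of the series enter the comparison. The other 4 come from the same line overexpressing FDX1 (FDX1-OE) under the same DMSO and ES treatments. They set a second ES response beside the first, and they enter the estimate of spread behind every SE and adjusted p. A fit to the 4 control-cell libraries alone called 3464 genes, against 3694 in the fit to all 8. The labels name neither the vector of the overexpressing cells nor what the control cells carry, and whether the libraries of a group stem from independent cultures is not stated, so p-values reflect only how far these particular libraries scatter. Of the 15597 genes in the deposited tables, 9526 had at least 1 FPKM (reads scaled to gene length and library size) in at least 2 of the 4 libraries and were tested.

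Elesclomol is a copper ionophore: it carries copper into cells and into mitochondria, where ferredoxin 1, the product of FDX1, can reduce the bound metal and release it. Copper in excess is known to bind lipoylated enzymes of the TCA cycle, to disturb iron-sulfur proteins and to cause a form of cell death called cuproptosis. Cells buffer copper and zinc with metallothioneins, which the metal-sensing transcription factor MTF1 switches on. FDX1 in the control cells was at 25.6 and 22.2 FPKM in DMSO and at 21.3 and 21.4 FPKM in ES, and it did not pass the test (log2 change -0.15, SE 0.07, adjusted p = 0.0893, with the sign unchanged but adjusted p = 0.0256 under RLE scaling, 0.022 under TMM scaling and 0.0185 without control DMSO replicate 2). In the FDX1-OE cells FDX1 lay between 69.9 and 84.8 FPKM.

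Metal buffering is shown first because of its link to the drug, with the 250 bases before the transcription start of its responding genes and of 3 further genes that stand for the groups described below. The sequences are from RefSeq (GRCh38.p14, not the build hg19 named for the deposited values), 5′ to 3′ on the strand of the gene. Capitals mark matches, on either strand, to the letters searched for each gene. These were TGCACNC or TGCGCNC, the core of the metal response element bound by MTF1, for MT2A (chr16:56608334-56608583, + strand, 7 matches) and MT1X (chr16:56682220-56682469, + strand, 4 matches). They were GAAA, 2 bases of any kind and GAAA again, the interferon-stimulated response element, for IFI6 (chr1:27672193-27672442, - strand, 3 matches), and TTTGGCGC or TTTCCCGC, the site of the E2F factors of S phase, for TYMS (chr18:657403-657652, + strand, 1 match). For HSPA8 (chr11:123062137-123062386, - strand, 2 matches) they were 3 alternating units of GAA and TTC, starting with either and 2 bases apart, the heat shock element.
MT2A: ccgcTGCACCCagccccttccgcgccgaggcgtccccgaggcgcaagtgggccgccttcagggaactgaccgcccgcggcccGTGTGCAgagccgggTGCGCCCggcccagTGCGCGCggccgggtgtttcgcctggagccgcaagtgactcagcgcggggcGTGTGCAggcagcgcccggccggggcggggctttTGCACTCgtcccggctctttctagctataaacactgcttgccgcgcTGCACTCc
MT1X: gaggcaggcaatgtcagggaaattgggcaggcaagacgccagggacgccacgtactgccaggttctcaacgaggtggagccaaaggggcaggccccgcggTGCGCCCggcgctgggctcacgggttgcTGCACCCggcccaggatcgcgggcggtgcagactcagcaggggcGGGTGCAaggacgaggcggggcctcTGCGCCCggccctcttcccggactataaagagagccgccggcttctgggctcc
IFI6: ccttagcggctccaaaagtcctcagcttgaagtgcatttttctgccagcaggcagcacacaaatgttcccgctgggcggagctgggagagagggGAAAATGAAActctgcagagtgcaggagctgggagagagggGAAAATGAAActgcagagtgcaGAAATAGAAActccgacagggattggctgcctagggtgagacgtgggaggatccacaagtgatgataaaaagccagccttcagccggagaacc
TYMS: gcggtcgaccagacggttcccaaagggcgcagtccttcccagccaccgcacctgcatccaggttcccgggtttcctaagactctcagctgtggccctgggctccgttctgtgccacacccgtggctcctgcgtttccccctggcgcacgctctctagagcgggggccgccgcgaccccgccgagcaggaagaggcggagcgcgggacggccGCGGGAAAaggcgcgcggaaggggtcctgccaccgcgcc
HSPA8: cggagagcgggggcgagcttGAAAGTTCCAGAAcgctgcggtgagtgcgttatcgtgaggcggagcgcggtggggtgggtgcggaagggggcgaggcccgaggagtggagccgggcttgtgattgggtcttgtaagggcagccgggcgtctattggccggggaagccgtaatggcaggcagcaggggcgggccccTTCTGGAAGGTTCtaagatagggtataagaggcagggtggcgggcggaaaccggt
The table held 11373 starts of 7867 of the 9526 tested genes. The metal core was found at 32.1% of these starts, the interferon element at 2.57%, the E2F site at 3.23% and the heat shock element at 0.317%. In the gene lists described below, the interferon element was found at 33.1% of 139 starts of the interferon list, the E2F site at 28.8% of 52 starts of the replication list, and the heat shock element at 15.6% of 32 starts of the heat shock list. The metal core was found at 3 of 6 starts of the list of metallothioneins and MTF1 targets. It was also found at 48.1% of the 52 starts of the replication list and at 31.1% of the starts of all genes that rose. These are counts of letters, not of bound sites.

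Metallothionein 2A rose strongly. MT2A, which binds copper and zinc ions, was at 91.6 and 92.3 FPKM in DMSO and at 380.8 and 307.6 FPKM in ES, a rise of 3.69-fold (log2 change 1.88, SE 0.10, adjusted p = 1.05e-06). MT1X, a second metallothionein, went from 23.5 and 19.4 FPKM to 33.8 and 32.2 FPKM (1.52-fold, log2 change 0.60, SE 0.11, adjusted p = 0.00169). In both genes the lowest ES library lay above the highest DMSO library. MTF1 itself (3.49 and 3.98 against 3.72 and 3.36 FPKM) and its target SLC30A1, which exports zinc (2.72 and 2.80 against 3.2 and 2.75 FPKM), overlapped between the groups and did not pass (adjusted p = 0.625 and 0.501). Of 5 tested genes of the list of metallothioneins and MTF1 targets, 2 were higher and 0 lower, against 25.4% and 13.4% of all genes tested. The median log2 change of the list was 0.08, against 0.06 for all genes, and 4 more members were under the filter. Metallothioneins are near-identical in sequence, so reads of one may be counted for another. Folds and log2 changes were computed from FPKM + 1 throughout and are therefore too small for genes of low level, and a gene was said to rise or fall when limma gave an adjusted p below 0.05 over all 9526 genes.

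Copper handling genes passed the test about as often as all genes. Of 18 tested genes of the list, 3 were higher and 4 lower, with a median log2 change of -0.03 against 0.06 for all genes tested, and 6 were lower with RLE or TMM scaling. Over all tested genes 38.8% passed, 25.4% as higher and 13.4% as lower, and these are the shares against which the counts of each list below are to be read. COA6, which helps to build the copper centre of cytochrome c oxidase, fell from 20.9 and 17.5 FPKM to 12.5 and 13.3 FPKM (log2 change -0.53, SE 0.08, adjusted p = 0.000637). SCO2, a copper chaperone of the same enzyme, fell from 20.8 and 18.5 to 15.0 and 13.5 FPKM (log2 change -0.44, SE 0.09, adjusted p = 0.00451). CCS, which loads copper into superoxide dismutase 1, rose from 18.3 and 18.1 to 24.3 and 22.4 FPKM (log2 change 0.34, SE 0.06, adjusted p = 0.00204). The importer SLC31A1 (6.10 and 5.38 against 5.90 and 5.33 FPKM) and the chaperone ATOX1 (132.1 and 138.0 against 121.6 and 130.9 FPKM) did not pass, at adjusted p = 0.851 and 0.190. ATOX1 passed as lower under RLE scaling (adjusted p = 0.0467) and TMM scaling (adjusted p = 0.0402). The copper-exporting ATPase ATP7A was under the filter on low values, at 0.715 and 0.755 FPKM in DMSO and 0.914 and 1.09 FPKM in ES.

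The same held for lipoylation genes. Of 20 tested, 3 were higher and 4 lower (median log2 change -0.03), or 1 and 5 with RLE and TMM scaling. LIPT2, the transferase that begins lipoyl synthesis, rose from 2.39 and 3.08 to 4.19 and 5.28 FPKM (log2 change 0.62, SE 0.12, adjusted p = 0.00232). LIAS, the lipoyl synthase, did not pass (4.87 and 4.81 against 4.17 and 4.71 FPKM, adjusted p = 0.393). DLAT, the lipoylated subunit of pyruvate dehydrogenase, was at 57.8 and 54.1 FPKM in DMSO and 47.1 and 49.3 FPKM in ES (log2 change -0.21, SE 0.06, adjusted p = 0.0184), a call that did not hold in the fits lacking the first control DMSO library (adjusted p = 0.126) or the first control ES library (0.1). Iron handling held 5 rises and 4 falls among 19 genes. Its clearest members were FTH1, the heavy chain of the iron store ferritin, which rose from 364.3 and 362.4 to 575.8 and 514.9 FPKM (1.5-fold, log2 SE 0.06, adjusted p = 4.07e-05), and TFRC, the transferrin receptor that takes iron up, which rose from 36.5 and 35.6 to 59.1 and 55.7 FPKM (1.58-fold, SE 0.06, adjusted p = 1.93e-05). PCBP1, an RNA-binding protein that also delivers iron to ferritin, fell from 367.3 and 377.9 to 260.6 and 271.7 FPKM (log2 change -0.48, SE 0.05, adjusted p = 4.61e-05). The storage gene and the uptake gene thus rose in the same libraries.

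Across the transcriptome, 2418 genes were higher and 1276 lower with ES, and 65.5% of the calls were rises. Falls numbered 829 in the fit lacking control DMSO replicate 1. The division depended on scaling: with RLE scaling, which moves the median over all tested genes from 0.06 to 0.00 (log2), 1844 genes were higher and 1837 lower (50.1% rises), and with TMM scaling 1780 and 1906 (48.3% rises). Every one of the 1844 RLE rises was among the 2418, and each of the 1276 falls was also a fall under RLE. Most changes were small, with a median log2 change of 0.35 for the genes that rose and -0.29 for those that fell. Without RLE or TMM scaling, at least 1.5-fold was reached by 332 rises and 45 falls, and at least 2-fold by 92 rises and 1 fall. That fall was RASA4, named after its value was seen. It was at 6.44 and 2.08 FPKM in DMSO and 0.448 and 0.343 FPKM in ES (log2 change -1.78, SE 0.30, adjusted p = 0.00117). RASA4 has near-identical copies and passed the filter through the DMSO libraries alone. Under RLE and TMM scaling, for which these counts were not made, DDN also fell by at least 2-fold (log2 change -1.04 in each). Falls were concentrated among abundant genes: among the 2382 tested genes with a mean of up to 4.74 FPKM 29.4% rose and 3.23% fell, and among the 2382 from 29.7 FPKM upward 18.8% rose and 26% fell. The median level was 28.2 FPKM for genes that fell, 9.83 FPKM for genes that rose and 10.5 FPKM for genes not called. All 3694 called genes had groups that did not overlap, as had 71.1% of all tested genes. In all, 174 genes reached the filter through the ES libraries alone, of which 145 were called higher, and 23 through the DMSO libraries alone, of which 10 were called lower.

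**Figure D1:**
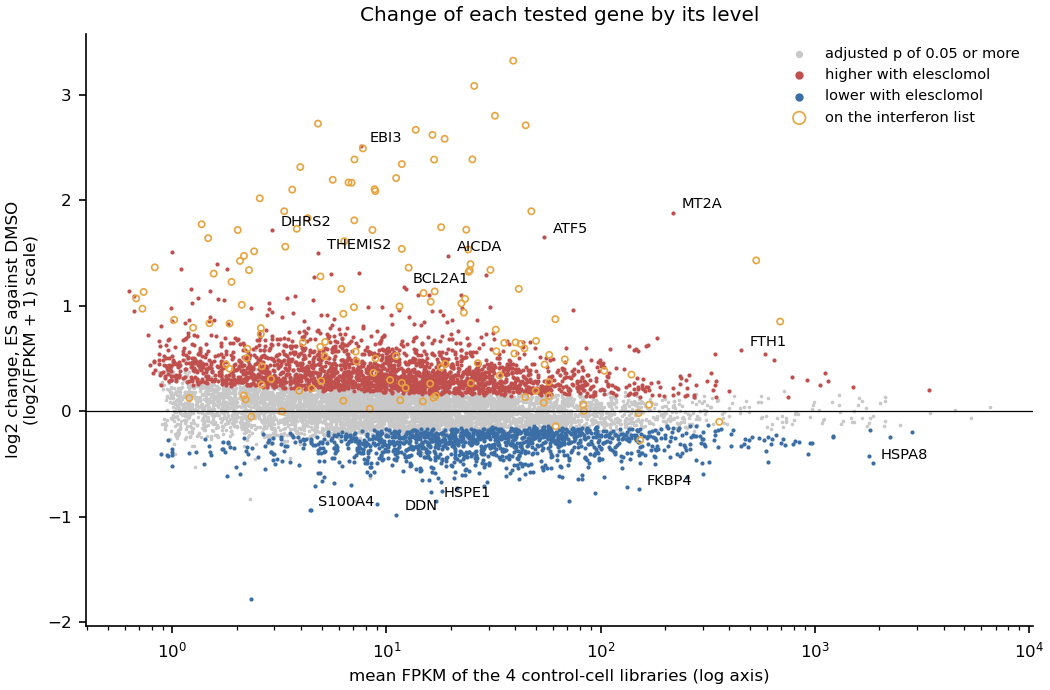
Change of each of the 9526 tested genes (vertical axis, log2 change between ES and DMSO in control cells on the log2(FPKM + 1) scale) against its mean FPKM over the 4 libraries (horizontal log axis). Rises reach further than falls, and from 29.7 FPKM upward falls (26% of genes) are more common than rises (18.8%).

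Interferon-induced genes held most of the largest rises and are given briefly. Of 138 tested genes of that list 115 were higher and 1 lower (median log2 change 0.84), and 68 more were under the filter. Some members, among them TNFSF10, CASP4, GSDMD and ZBP1, passed the filter through the ES libraries alone, which fixed the direction of their change. A count without all such members was not made. With no filter 127 were higher, and with a mean of at least 5 FPKM 76 were, each with another number of genes tested. IFI6, an antiviral and anti-apoptotic membrane protein, was at 6.73 and 5.71 FPKM in DMSO and 82.2 and 61.5 FPKM in ES (log2 change 3.32, SE 0.17, adjusted p = 7.87e-07). IFIT3, which binds viral RNA together with its relatives, was at 11 and 11 FPKM and at 90.5 and 66.4 FPKM (log2 change 2.71, SE 0.15, adjusted p = 9.93e-07). Outside that list stood 2303 of the 2418 rises, 248 of the 332 rises of at least 1.5-fold and 31 of the 92 rises of at least 2-fold. The genes described from here on are mostly outside it.

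The 8 libraries held between 33435438 and 35883528 reads, as recovered from the FPKM steps, and 3 reads of a gene of 1 kb correspond to between 0.0836 and 0.0897 FPKM. The median absolute log2 difference between the 2 replicates was 0.076 in control DMSO and 0.08 in control ES, against 0.16 between the group means. The 4 libraries carried the markers of a B-cell line. All 8 markers of germinal-centre B-cell lines were at 1 FPKM or more, among them CD79A, PAX5 and MME, with a summed level of 1360 to 1370 FPKM in DMSO and 1540 to 1590 FPKM in ES. Of 10 T and NK cell markers 3 passed the filter (CD3E, CD247 and PRF1), and CD3D, CD3G, CD7 and NCAM1 were at 0 in all 4 libraries. Their sum was 28.1 to 30.8 FPKM in DMSO and 25.8 to 26.3 FPKM in ES. Of 9 myeloid markers only CD68 and FCER1G passed, while MPO and MRC1 were at 0. CD14, CSF1R, ITGAM, LYZ and TYROBP were at 0.28 FPKM or less in each of the 4 libraries. The sum of the myeloid markers rose from between 4.08 and 4.35 FPKM in DMSO to between 12.5 and 16.6 FPKM in ES. Of 12 epithelial and stromal markers only DCN passed and 5 were at 0, including EPCAM, KRT8 and KRT18, with sums of 12.6 to 14.3 FPKM in DMSO and 9.97 to 10.9 FPKM in ES. In bulk RNA, more cells of a type and more RNA per cell cannot be told apart.

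Among genes with a mean of at least 5 FPKM in a group, the largest rise outside the interferon list was that of EBI3, the beta chain of the cytokines IL-27 and IL-35. It was at 1.41 and 1.61 FPKM in DMSO and 17.0 and 10.4 FPKM in ES (5.71-fold, log2 change 2.51, SE 0.16, adjusted p = 2.53e-06). After MT2A came DHRS2, a mitochondrial short-chain dehydrogenase, from 0.851 and 0.802 to 5.48 and 4.55 FPKM (3.28-fold, log2 SE 0.11, adjusted p = 2.77e-06). ATF5, which drives a stress response to mitochondrial damage, rose from 25.3 and 26.4 to 87.1 and 79.8 FPKM (3.14-fold, SE 0.06, adjusted p = 1.68e-07). DHRS2 passed the filter through the ES libraries alone. THEMIS2, a signalling adaptor of B cells and myeloid cells, rose 2.82-fold, from 1.57 and 2.55 to 7.4 and 7.68 FPKM (log2 SE 0.12, adjusted p = 1.1e-05). IDUA, a lysosomal enzyme that degrades heparan and dermatan sulfate, rose 2.47-fold, and FCER1G, the signalling chain of Fc receptors, 2.46-fold. SAT1, the enzyme that acetylates spermidine and spermine for breakdown, rose from 17.3 and 15.9 to 43.7 and 40.4 FPKM (2.45-fold, SE 0.11, adjusted p = 2.03e-05). SPNS3, a transporter, rose 2.42-fold, BCL2A1, an anti-apoptotic relative of BCL2, 2.26-fold, and ALDOC, the brain-type aldolase, 2.23-fold. In each of these 11 genes both ES libraries lay above both DMSO libraries.

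Falls were smaller. DDN, which encodes dendrin, a cytoskeletal protein, was at 15.3 and 14.8 FPKM in DMSO and 6.94 and 7.33 FPKM in ES, or 0.507 times (log2 change -0.98, SE 0.07, adjusted p = 3.76e-06). S100A4, a small calcium-binding protein, went from 6.04 and 6.05 to 3.24 and 2.20 FPKM (log2 change -0.94, SE 0.11, adjusted p = 0.000174). KREMEN2, a receptor that restrains Wnt signalling, went from 12.1 and 11.9 to 6.69 and 5.54 FPKM (log2 change -0.88, SE 0.09, adjusted p = 5.79e-05). SAPCD2, which helps to orient the mitotic spindle, fell from 89.0 and 94.7 to 53.1 and 48.1 FPKM (log2 change -0.85, SE 0.08, adjusted p = 3.15e-05). GPR89A, given last, was at 0.524 times, and the remaining falls were of 0.556 to 0.609 times. HSPE1, the small subunit of the mitochondrial chaperonin, went to 0.556 times its DMSO level, RABAC1, a trafficking protein of the Golgi, to 0.585 times, INKA1, an inhibitor of the kinase PAK4, to 0.589 times and GATD3B to 0.592 times. FKBP4, LRFN4 and ATP6V0B, a proton-pump subunit, lay at 0.601, 0.606 and 0.609 times. GPR89A (5.49 and 6.72 against 2.28 and 3.19 FPKM, log2 change -0.93, SE 0.24, adjusted p = 0.0102) did not pass in the fits lacking control DMSO library 2 (adjusted p = 0.0756) or control ES library 1 (0.0724), nor with no filter (0.0828). GPR89A and GATD3B have near-identical copies in the genome, so their counts are uncertain.

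**Figure D2:**
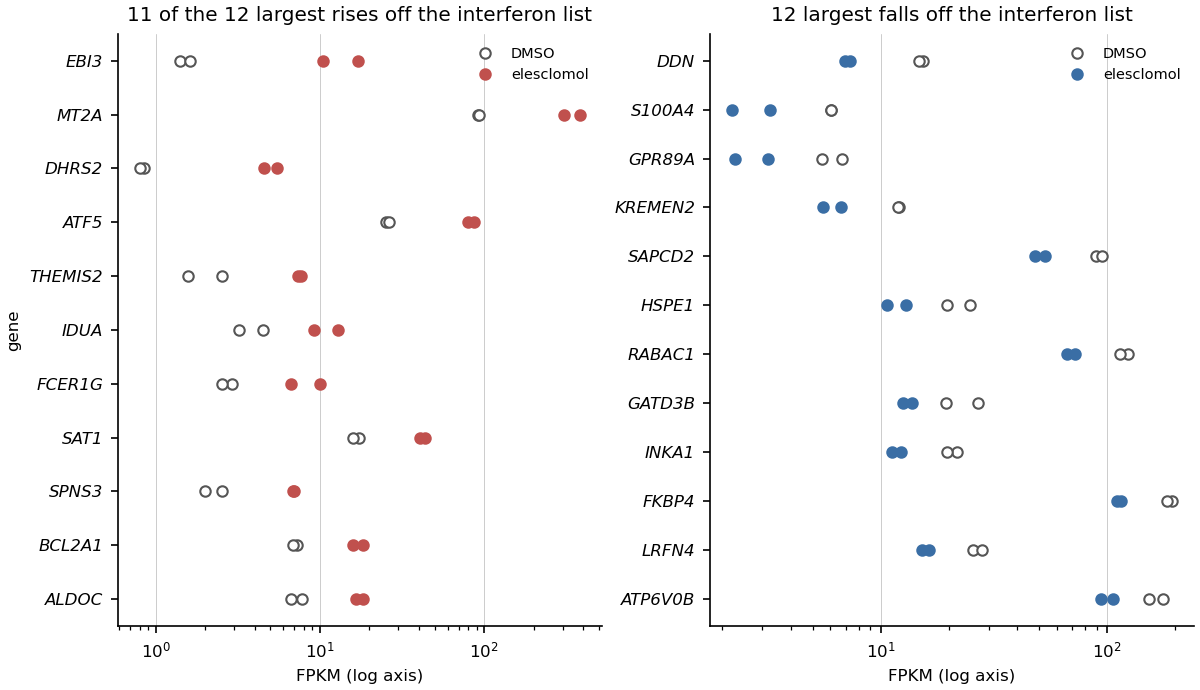
FPKM (log axes) of 11 of the 12 largest rises (left) and the 12 largest falls (right) outside the interferon list, among called genes with a mean of at least 5 FPKM in a group, 1 row per gene. Open points are the 2 DMSO libraries and filled points the 2 ES libraries, and the groups do not overlap in any row.

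Ribosome biogenesis fell as a group. Ribosomes are assembled in the nucleolus from RNA made by RNA polymerase I and from proteins brought together by many assembly factors. Of 47 such factors tested, 31 were lower and none higher with ES, with a median log2 change of -0.24 against 0.06 for all genes, and no member had a value above 0. RRS1, needed for the large subunit, was at 102.4 and 98.5 FPKM in DMSO and 62.5 and 65.8 FPKM in ES (log2 change -0.64, SE 0.05, adjusted p = 1.07e-05). NOP16 went from 125.9 and 126.2 to 78.7 and 84.1 FPKM (log2 change -0.63, SE 0.06, adjusted p = 6.09e-05), and BOP1, of the complex that processes the large ribosomal RNA, from 115.3 and 112.4 to 84.1 and 82.8 FPKM (log2 change -0.44, SE 0.05, adjusted p = 0.000119). In these 3 genes the groups stood well apart. With each of the 4 libraries left out in turn, between 23 and 28 factors were lower, and under RLE scaling 38 were.

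The polymerases and the translation factors moved in the same direction but less evenly. Cytosolic ribosomal proteins were lower no more often than abundant genes at large. Of 27 subunits and factors of RNA polymerases I and III, 11 were lower and 2 higher (median log2 change -0.16), a count of falls that was 6 without control DMSO replicate 1. POLR1B, the second-largest subunit of polymerase I, fell from 19.4 and 17.6 to 12.7 and 13.7 FPKM (log2 change -0.45, SE 0.07, adjusted p = 0.000828), and POLR1G from 26.7 and 29.4 to 18 and 19.4 FPKM (log2 change -0.56, SE 0.07, adjusted p = 0.00014). POLR3GL, an alternative subunit of polymerase III, rose from 28.2 and 28.2 to 37.9 and 40.2 FPKM (log2 change 0.45, SE 0.06, adjusted p = 0.000379). Of 42 translation factors 14 were lower and 3 higher, with 7 lower without control DMSO replicate 1, 9 without control ES replicate 1 and 22, with none higher, under TMM scaling. Among them EIF3B, a scaffold of initiation, fell from 275.7 and 280.2 to 221.3 and 218.2 FPKM (log2 change -0.34, SE 0.04, adjusted p = 0.000257). For comparison, 26% of all tested genes from 29.7 FPKM upward fell and 18.8% rose. Of 82 cytosolic ribosomal proteins 21 were lower (25.6%) and 5 higher (6.1%), with a median log2 change of -0.06. That count was 7 without control DMSO replicate 1, 8 without control ES replicate 2, 11 without the filter, 34 with RLE scaling and 35 with TMM scaling. MYC, a transcription factor that drives ribosome production, was at 162.6 and 181.8 FPKM in DMSO and 137.0 and 155.2 FPKM in ES (log2 change -0.24, SE 0.07, adjusted p = 0.0246). It did not pass in the fits lacking control DMSO library 2 (adjusted p = 0.186) or control ES library 1 (0.185), nor with no filter (0.0909).

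Chaperones that fold newly made proteins were lower. TRiC is a ring of related subunits that folds actin, tubulin and other proteins, and prefoldin hands substrates to it. Of the 14 subunits of both complexes, 10 were lower and 1 higher with ES (median log2 change -0.27). CCT3 fell from 333.1 and 316.8 to 231.3 and 239.8 FPKM (log2 change -0.46, SE 0.05, adjusted p = 6.68e-05), TCP1 from 251.9 and 231.8 to 172.7 and 185.0 FPKM (log2 change -0.43, SE 0.06, adjusted p = 0.000276) and CCT2 from 296.4 and 269.6 to 215.5 and 222.8 FPKM (log2 change -0.37, SE 0.06, adjusted p = 0.000992). All 8 tested subunits of the ring fell, CCT7 by the least (log2 change -0.17).

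Of 25 cytosolic heat shock proteins and partners of HSP90, 12 were lower and 3 higher (median log2 change -0.22). FKBP4, a co-chaperone that brings HSP90 to steroid receptors, was at 193.0 and 183.5 FPKM in DMSO and 110.7 and 114.8 FPKM in ES (log2 change -0.73, SE 0.05, adjusted p = 3.13e-06). HSPA8, the constitutive HSP70 whose promoter is printed above, was among the most abundant genes that fell, from 2238.9 and 2114.4 to 1447.9 and 1653.2 FPKM (log2 change -0.49, SE 0.06, adjusted p = 0.000263). HSP90AB1 fell from 1078.8 and 1039.8 to 761.1 and 844.5 FPKM (log2 change -0.40, SE 0.05, adjusted p = 0.000322), and AHSA1, which speeds the ATPase cycle of HSP90, from 266.6 and 252.6 to 189.3 and 201.9 FPKM (log2 change -0.41, SE 0.05, adjusted p = 0.000233). The inducible HSP70 gene HSPA1A was under the filter, between 0.172 and 0.255 FPKM in all 4 libraries. HSP90AA1, named after its values were seen, was at 710.6 and 664.0 against 543.1 and 604.4 FPKM (adjusted p = 0.00596) and missed the threshold in the fits lacking control DMSO library 1 (adjusted p = 0.0539) or control ES library 1 (0.0541). HSP70 and HSP90 genes share sequence with relatives and pseudogenes, so their counts may be split.

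Mitochondrial folding and import genes fell in part. Of 22 mitochondrial chaperones and proteases 8 were lower and 1 higher, a count of falls that was 4 in the fit lacking control DMSO replicate 2 and 5 in that lacking control ES replicate 1. HSPE1 was at 24.7 and 19.6 FPKM in DMSO and 13.0 and 10.7 FPKM in ES (log2 change -0.85, SE 0.12, adjusted p = 0.000469), and its partner HSPD1, the large subunit of the same chaperonin, at 564.4 and 513.3 against 429.2 and 463.9 FPKM (log2 change -0.27, SE 0.06, adjusted p = 0.00397). Of 26 genes for protein import 13 were lower and 3 higher (median log2 change -0.16), with none higher under RLE or TMM scaling and 8 lower without control DMSO replicate 1. TIMM13, a small chaperone of the space between the membranes, fell from 80.1 and 75.7 to 50.8 and 50.3 FPKM (log2 change -0.61, SE 0.05, adjusted p = 1.56e-05). TOMM40, the channel of the outer membrane, fell from 171.6 and 174.1 to 132.4 and 126.0 FPKM (log2 change -0.42, SE 0.05, adjusted p = 0.000254).

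**Figure D3:**
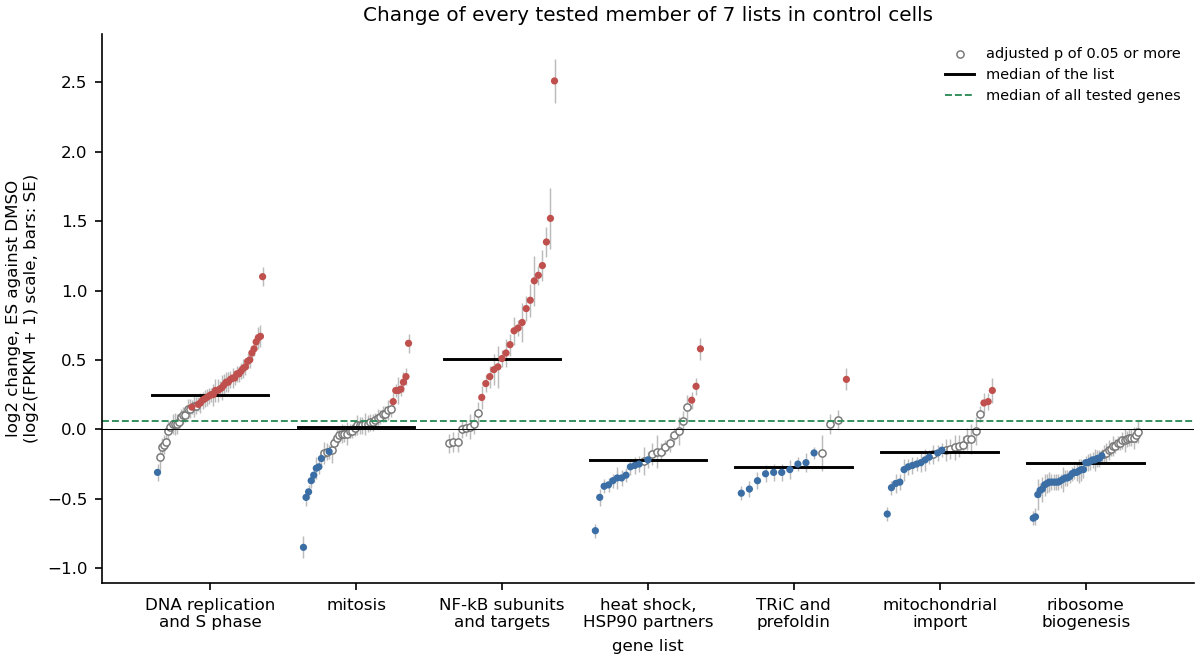
Change of every tested member of 7 gene lists (vertical axis, log2 change between ES and DMSO in control cells with its SE, on the log2(FPKM + 1) scale), sorted within each list. Filled points passed the test (red higher, blue lower), black bars are list medians and the dashed line is the median of all tested genes, 0.06. The medians run from 0.51 for NF-kB to -0.27 for TRiC and prefoldin.

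Some respiratory chain genes were lower. Among all tested genes from 29.7 FPKM upward 26% fell, a share to set beside those of abundant groups. Of 39 complex I subunits 13 were lower and 2 higher (median log2 change -0.08), and of 42 subunits of complexes II to V 11 were lower (26.2%) and 3 higher (median log2 change -0.06). NDUFB10 of complex I fell from 263.5 and 277.4 to 198.1 and 204.2 FPKM (log2 change -0.43, SE 0.06, adjusted p = 0.000469). ATP5F1D, a subunit of the ATP synthase, fell from 313.9 and 302.1 to 213.8 and 185.6 FPKM (log2 change -0.63, SE 0.08, adjusted p = 0.00016). NDUFA4L2, a relative of a respiratory chain subunit that hypoxia induces, rose from 10.7 and 9.43 to 17.8 and 16.1 FPKM (log2 change 0.69, SE 0.10, adjusted p = 0.000446). Of 77 mitochondrial ribosomal proteins 24 were lower (31.2%) and 11 higher (27 and 6 with RLE scaling), the latter including MRPL49 (log2 change 0.45, SE 0.06, adjusted p = 0.000266). Without control DMSO replicate 1 the falls numbered 6 for complex I, 7 for complexes II to V and 14 for the ribosomal proteins, and without control ES replicate 2 they numbered 6, 7 and 15. Without the filter, complex I had 5 falls and complexes II to V 7, and without the mean trend complex I had 8. Under RLE and TMM scaling complexes II to V had 18.

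Among other abundant housekeeping groups, 14 of 32 constitutive proteasome genes were lower and 2 higher, and 9 of 21 glycolytic genes were lower and 1 higher. PSMB6, a catalytic subunit, fell from 111.8 and 100.9 to 81.2 and 77.7 FPKM (log2 change -0.42, SE 0.06, adjusted p = 0.000596). The proteasome count was 4 without control DMSO replicate 1, 7 without control ES replicate 2 and 8 without the filter. PFKM, a phosphofructokinase, fell from 53.4 and 51.3 to 36.8 and 36.4 FPKM (log2 change -0.50, SE 0.06, adjusted p = 9.15e-05), PGK1 from 105.3 and 96.3 to 73.9 and 71.8 FPKM (log2 change -0.46, SE 0.06, adjusted p = 0.000201), and HK2, a hexokinase, from 35.4 and 35.6 to 24.8 and 25 FPKM (log2 change -0.49, SE 0.08, adjusted p = 0.000851). ALDOC went the other way, from 6.69 and 7.76 to 18.2 and 16.5 FPKM, and was the single glycolytic gene that rose. Under RLE and TMM scaling 14 glycolytic genes were lower.

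Lipid synthesis genes fell in part. Of 30 genes of cholesterol and fatty acid synthesis 10 were lower and 3 higher, and 6 were lower when either ES replicate was left out. SREBF1, the transcription factor of fatty acid genes, fell from 18.7 and 21.0 to 13.0 and 12.9 FPKM (log2 change -0.57, SE 0.07, adjusted p = 0.000152). FASN, the fatty acid synthase, fell from 92.0 and 105.4 to 66.6 and 62.2 FPKM (log2 change -0.60, SE 0.08, adjusted p = 0.00033), and SCD, which makes monounsaturated fatty acids, from 66.7 and 68.7 to 48.9 and 50.8 FPKM (log2 change -0.43, SE 0.06, adjusted p = 0.000325).

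Genes of DNA replication were higher, and mitotic genes were mixed. Of 50 tested genes of replication and S phase, 32 were higher and 1 lower with ES (median log2 change 0.25), and with RLE scaling 27 were higher and 3 lower. CCNE2, the cyclin that starts S phase, was at 9.83 and 9.53 FPKM in DMSO and 22.6 and 21.2 FPKM in ES (2.15-fold, log2 change 1.10, SE 0.07, adjusted p = 3.04e-06). TYMS, which makes thymidylate and whose promoter is printed above, rose from 130.9 and 130.3 to 213.7 and 190.9 FPKM (1.54-fold, log2 SE 0.06, adjusted p = 2.62e-05). RRM2, the regulated subunit of ribonucleotide reductase, rose from 118.3 and 111.2 to 172.6 and 170.7 FPKM (1.49-fold, SE 0.05, adjusted p = 1.73e-05). CDC45, part of the replicative helicase, rose from 33.1 and 32.7 to 49.8 and 47.3 FPKM (1.46-fold, SE 0.05, adjusted p = 4.07e-05). The exceptions include MCM6, another helicase subunit, at 109.0 and 105.8 against 100.3 and 101.9 FPKM (adjusted p = 0.167, and lower with adjusted p = 0.0279 under RLE and 0.0234 under TMM scaling). The single fall was FEN1, which trims Okazaki fragments, from 104.7 and 96.7 to 84.7 and 77.4 FPKM (log2 change -0.31, SE 0.06, adjusted p = 0.00216). MCM6 and FEN1 were named after their values were seen.

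Of 42 mitotic genes 7 were higher and 9 lower (median log2 change 0.02). CCNB1, the main mitotic cyclin, fell from 108.4 and 98.1 to 72.2 and 73.7 FPKM (log2 change -0.49, SE 0.06, adjusted p = 0.00016). CDC20, which activates the anaphase ligase, fell from 158.7 and 159.2 to 118.9 and 113.0 FPKM (log2 change -0.45, SE 0.05, adjusted p = 6.88e-05), and the mitotic kinase PLK1, named after its values were seen, from 170.3 and 177.5 to 135.0 and 141.5 FPKM (log2 change -0.33, SE 0.05, adjusted p = 0.000625). CDC25C, the phosphatase that activates the mitotic kinase CDK1, rose from 5.56 and 5.56 to 8.90 and 9.29 FPKM (log2 change 0.62, SE 0.07, adjusted p = 0.000124). With RLE and TMM scaling 5 mitotic genes were higher and 12 lower. The difference between the replication and the mitotic list was not tested.

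NF-kB subunits and targets were higher. Of 27 tested, none of which is on the interferon list, 19 were higher and none lower (median log2 change 0.51). Beside EBI3, LTB, the membrane anchor of lymphotoxin, rose from 14.5 and 13.2 to 31.6 and 30.2 FPKM (2.15-fold, log2 SE 0.07, adjusted p = 3e-06). CD83, a surface protein of activated B cells, rose from 15.1 and 14.5 to 25.9 and 24.5 FPKM (1.66-fold, SE 0.06, adjusted p = 1.07e-05). NFKBIA, the inhibitor that NF-kB itself induces, named after its values were seen, rose from 16.8 and 20.1 to 35.8 and 32.9 FPKM (1.82-fold, SE 0.09, adjusted p = 7.7e-05). CCL22, a chemokine, went from 0.148 and 0.220 FPKM to 1.80 and 2.24 FPKM (adjusted p = 1.45e-05), and it passed the filter only through the ES libraries. Of 15 tested TNF family ligands and receptors 9 were higher and 1, TNFRSF10A, lower, a call that failed at adjusted p = 0.318 in the fit lacking control DMSO replicate 2 and at 0.29 in that lacking control ES replicate 1. CD40, the receptor of T-cell help, rose from 19.1 and 19.3 to 28.3 and 27.4 FPKM (log2 change 0.51, SE 0.06, adjusted p = 9.8e-05), and CD27 from 64.9 and 67.4 to 93.8 and 89.0 FPKM (log2 change 0.46, SE 0.05, adjusted p = 0.000109). TNFSF10, the death ligand TRAIL, is also on the interferon list. It was at 0.434 and 0.355 FPKM in DMSO and 4.43 and 2.88 FPKM in ES (adjusted p = 1.73e-05), and like CCL22 it passed the filter through the ES libraries alone. The filter fixed the direction of both changes, which are part of the 19 NF-kB and 9 TNF family rises. When genes with a mean under 5 FPKM were left out, 12 NF-kB genes and 5 TNF family genes were higher, since fewer were tested.

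The ATF4 programme, which cells switch on when translation is curbed through eIF2 or amino acids run short, was mixed. Of 27 tested genes 10 were higher and 7 lower, the falls numbering 4 without control DMSO replicate 1 and without either ES replicate. ATF4 itself rose from 64.4 and 66.1 to 85.2 and 81 FPKM (log2 change 0.34, SE 0.06, adjusted p = 0.000845). Its targets PPP1R15A, which lets translation resume, and SESN2, which restrains mTORC1, rose 1.83-fold and 1.70-fold (SE 0.09 each on the log2 scale, adjusted p = 7.24e-05 and 0.000143). DDIT3, the stress factor CHOP, was at 15.2 and 19.3 against 22.2 and 22.9 FPKM (log2 change 0.37, SE 0.09, adjusted p = 0.00823), a call lost without control DMSO replicate 1 (adjusted p = 0.063). The largest change of this list was that of ATF5. The falls, named after their values were seen, included PYCR1 and ALDH18A1 of proline synthesis (log2 changes -0.44 and -0.26) and the amino acid transporters SLC7A5 and SLC1A5 (-0.29 and -0.24), while DDIT4, SLC3A2 and MTHFD1L lost their calls without control DMSO replicate 1 (adjusted p = 0.215, 0.209 and 0.121), either ES library and, for the last 2, control DMSO replicate 2 (0.0694 and 0.0642).

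Cell death genes held rises of both kinds, for and against death. Of 15 tested BCL2 family genes 8 were higher and 2 lower (median log2 change 0.28). The protective genes BCL2A1 and BCL2L1 rose, BCL2A1 from 7.23 and 6.83 to 16.0 and 18.4 FPKM (adjusted p = 2.35e-05) and BCL2L1 from 18.1 and 19.6 to 29.8 and 26.5 FPKM (log2 change 0.55, SE 0.07, adjusted p = 0.000229). PMAIP1, the killer protein NOXA, rose from 22.2 and 23.0 to 31.7 and 29.8 FPKM (log2 change 0.43, SE 0.06, adjusted p = 0.000325), and BNIP3L, a receptor for the removal of mitochondria, from 4.52 and 4.54 to 6.51 and 7.07 FPKM (log2 change 0.49, SE 0.08, adjusted p = 0.000762). Of 18 caspases and death effectors 10 were higher and 2 lower, or 6 higher once genes with a mean under 5 FPKM were left out. CASP4, the caspase that senses bacterial lipid, was at 0.439 and 0.506 FPKM in DMSO and 2.41 and 2.89 FPKM in ES (adjusted p = 1.45e-05). GSDMD, the pore former that it cuts, was at 0.938 and 0.645 against 2.10 and 2.27 FPKM (adjusted p = 0.000215). ZBP1, a sensor of unusual nucleic acids, was near 0 in DMSO (0.00848 and 0.0246 FPKM) and at 1.98 and 1.30 FPKM in ES (adjusted p = 1.81e-05). These 3 genes are also on the interferon list and passed the filter through the ES libraries alone, which fixed the direction of their change. They are part of the 10 rises. The falls, named after their values were seen, were BAX and BAK1, which open the outer mitochondrial membrane (log2 changes -0.28 and -0.23, adjusted p = 0.254 and 0.125 without control DMSO replicate 1 and 0.245 and 0.0976 without control ES replicate 2), FADD (-0.27) and CYCS, which encodes cytochrome c (-0.37).

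Autophagy and lysosome genes rose in part. Of 26 autophagy genes 11 were higher and none lower (median log2 change 0.17), with 9 higher and 2 lower under RLE scaling. MAP1LC3B, whose product coats the autophagosome, rose from 40.6 and 37.4 to 59.9 and 59.2 FPKM (log2 change 0.60, SE 0.07, adjusted p = 8.86e-05). The cargo receptors CALCOCO2 (log2 change 0.55, SE 0.08, adjusted p = 0.000578), TAX1BP1 (log2 change 0.35, SE 0.06, adjusted p = 0.000851) and SQSTM1 (log2 change 0.28, SE 0.05, adjusted p = 0.00256, named after its values were seen) rose too. Of 38 lysosomal genes 14 were higher and 4 lower, with 9 higher without control DMSO replicate 1. NEU1, a sialidase, rose from 5.0 and 5.04 to 7.63 and 7.27 FPKM (log2 change 0.49, SE 0.07, adjusted p = 0.000378), while CD63, a membrane protein of late endosomes, fell from 75.0 and 70.9 to 52.3 and 53 FPKM (log2 change -0.46, SE 0.06, adjusted p = 0.000168). CD68, a lysosomal protein that is also a myeloid marker and on the interferon list, rose from 1.15 and 1.27 to 5.90 and 5.17 FPKM (2.95-fold, log2 SE 0.08, adjusted p = 9.93e-07). The summed myeloid markers, given above, rose with it through CD68 and FCER1G, while the other markers of that list stayed at 0.28 FPKM or less. The part of myeloid cells in these rises was not tested.

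Genes of the germinal-centre B cell were higher in part. Of 31 tested, 12 were higher and 2, RGS13 and GNA13, lower (median log2 change 0.09). Both, named after their values were seen, lost their calls in the fits lacking control DMSO replicate 1 (adjusted p = 0.232 and 0.103) or control ES replicate 1 (0.243 and 0.0877). CXCR4, the chemokine receptor of the dark zone, rose from 52.6 and 56.0 to 84.3 and 81.6 FPKM (log2 change 0.60, SE 0.05, adjusted p = 1.79e-05). EZH2, the methyltransferase of the Polycomb complex, rose from 23.9 and 24.5 to 33.9 and 34.6 FPKM (log2 change 0.49, SE 0.06, adjusted p = 0.000124), and MYBL1 from 18.2 and 18.6 to 26.1 and 26.1 FPKM (log2 change 0.48, SE 0.05, adjusted p = 0.000113). BCL6, the repressor that defines the germinal-centre state, overlapped between the groups (61.8 and 71.3 against 61.8 and 65.0 FPKM, adjusted p = 0.455), and PRDM1, the plasma cell regulator, was at 0 in 3 libraries and at 0.00684 FPKM in control DMSO replicate 1. Of 30 genes of B-cell receptor signalling 9 were higher and 2 lower, against 7 higher and 7 lower with RLE or TMM scaling. RASGRP3, an activator of Ras, rose from 1.91 and 1.77 to 5.67 and 4.33 FPKM (log2 change 1.07, SE 0.11, adjusted p = 4.52e-05). Antigen presentation by MHC class I, of whose 19 tested genes 14 are on the interferon list, had 12 genes higher and none lower, with B2M going from 508.7 and 475.7 to 889.3 and 887.5 FPKM (log2 change 0.85, SE 0.07, adjusted p = 1.8e-05).

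**Figure D4:**
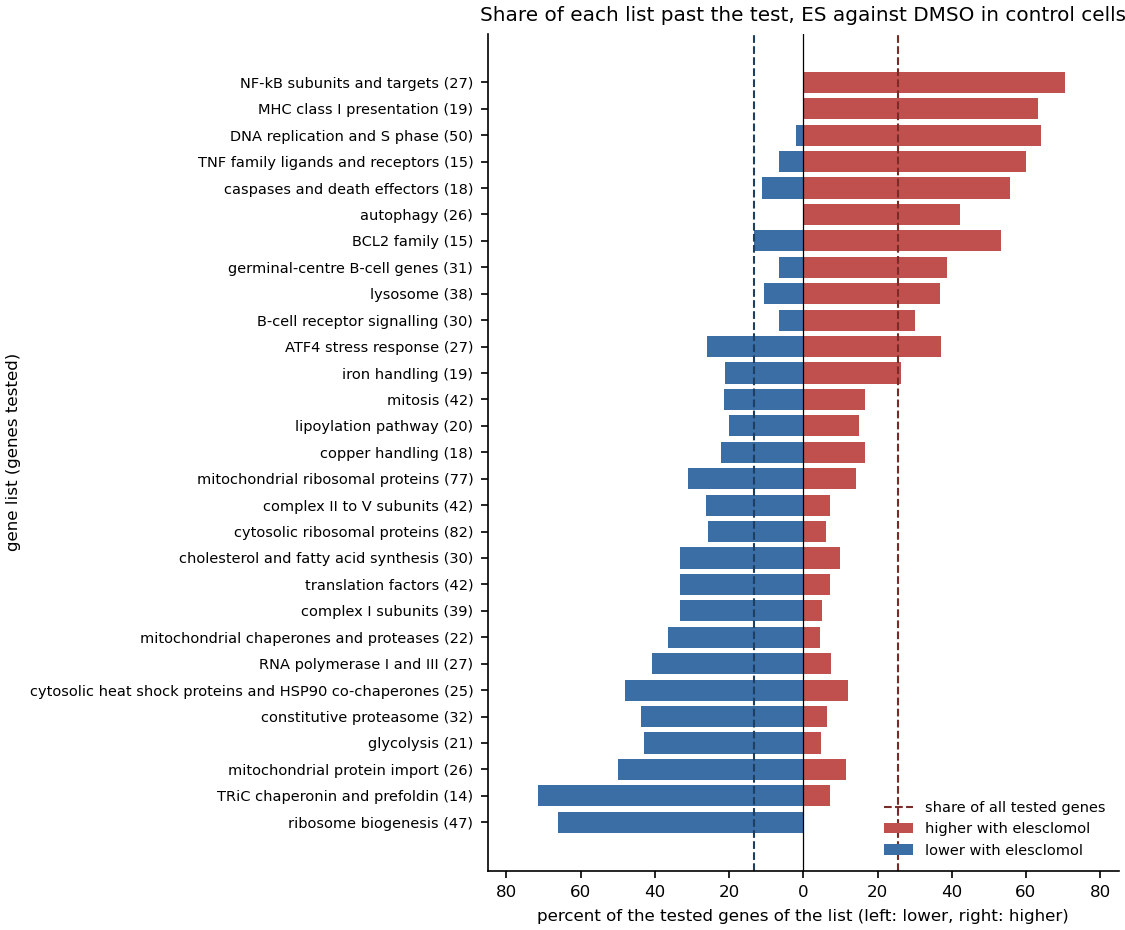
Percent of the tested genes of 29 lists that were higher (right, red) or lower (left, blue) with ES in control cells, with the number of tested genes in brackets. Dashed lines are the shares over all tested genes, 25.4% higher and 13.4% lower, and ribosome biogenesis, with 31 of 47 lower, stands at the foot.

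The cells overexpressing FDX1 gave a second ES response that shares no library with the first. Both responses share the estimate of each gene's spread, pooled over all 8 libraries, so their calls are not independent. A gene with a small pooled spread passes more easily in both, and how far this raises the overlap below was not tested. In it 3445 of the same 9526 genes were higher (36.2%) and 1873 lower (19.7%). Of the 2418 rises in control cells, 2026 were also rises there (83.8% of the control rises, 58.8% of the others), and of the 1276 falls 1012 were falls (79.3% and 54.0%). Opposite calls were made for 4 and 10 genes. The difference between the responses, tested as the interaction, was called for 348 genes (3.65% of those tested), and 213 of these were among the 3694 genes called in control cells. Of the 213, the change was in the same direction and larger in FDX1-OE cells for 188, smaller for 5 and opposite for 20. Not every list went the same way. In FDX1-OE cells 32 of 82 cytosolic ribosomal proteins were higher and 6 lower, against 5 and 21 in control cells. Of 30 genes of cholesterol and fatty acid synthesis 14 were higher and 7 lower there, against 3 and 10. The interaction passed for 5 and 6 genes of these lists, all higher in FDX1-OE cells. The count of 348 rested on single libraries: it was 88 without control DMSO replicate 1, 110 without control DMSO replicate 2, 548 without control ES replicate 1 and 64 without control ES replicate 2.

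MT2A rose by 1.88 on the log2 scale in control cells and by 1.95 in FDX1-OE cells, a difference of 0.06 that did not pass (SE 0.15, adjusted p = 0.85). EBI3 rose by 2.51 in control cells and 3.78 in FDX1-OE cells on the log2 scale (difference 1.26, adjusted p = 0.0172), DHRS2 by 1.72 and 3.06 (difference 1.34, adjusted p = 0.00242) and ATF5 by 1.65 and 2.48 (difference 0.83, adjusted p = 0.00191). Among the falls, FKBP4 changed by -0.73 and -1.02 (difference -0.29, adjusted p = 0.0475) and HSPA8 by -0.49 and -0.88 (difference -0.39, adjusted p = 0.0443). For TYMS and CXCR4 the difference was 0.00 (SE 0.08 and 0.07, adjusted p = 0.994 and 0.981). S100A4, at -0.94 and -0.28, missed the threshold (difference 0.66, adjusted p = 0.0502).

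**Figure D5:**
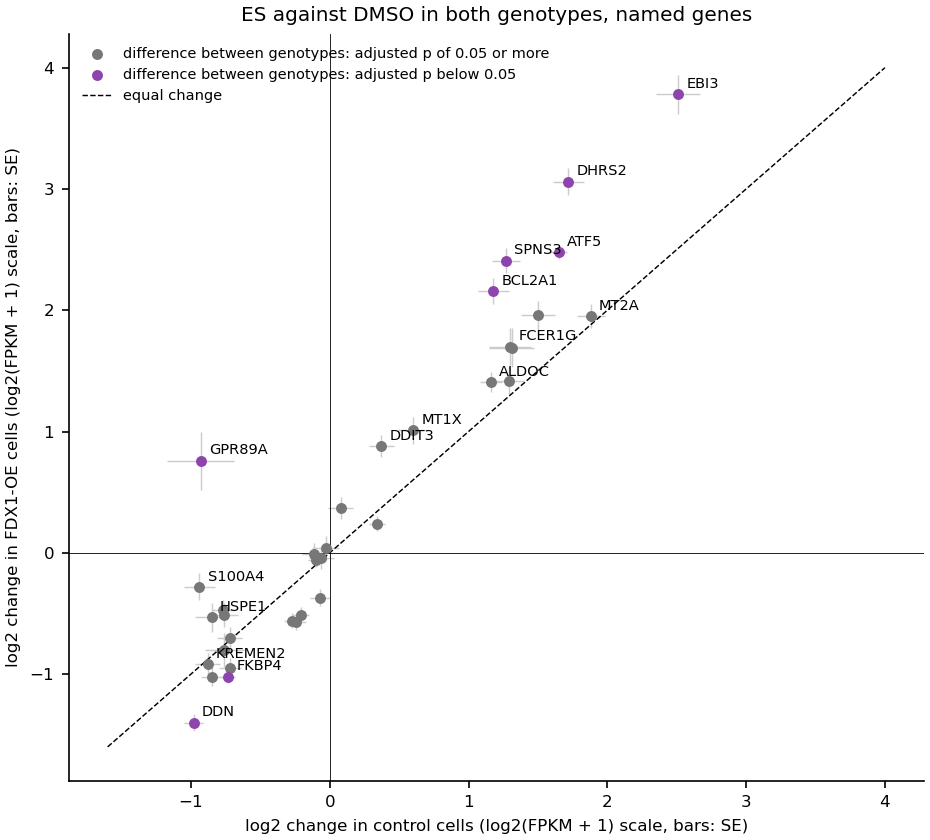
Log2 change between ES and DMSO in FDX1-OE cells (vertical axis) against that in control cells (horizontal axis), each with its SE, for the genes named by size and a set of copper, stress and lineage genes. Purple points differ between the genotypes by the interaction test, the dashed line marks equal change, MT2A lies near the line, and EBI3, DHRS2 and ATF5 lie above it.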

How the data were processed

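RNA from SUDHL-4 cells was extracted with TRIzol and sequenced, per the labels' protocols. The FPKM values were deposited by the authors, 1 table per library. The submitters' processing notes name HISAT2, HTSeq, R 3.2.0 and build hg19, without roles, and the file headers give no unit, so FPKM was read from the values. In all 8 libraries the values of all 15597 genes (100.0%) were whole multiples of 1 read within 0.02 read.

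Kept for testing were 9526 genes that reached 1 FPKM in 2 or more of the 4 control-cell libraries. limma 3.58.1 (R 4.3.3) was fitted to log2(FPKM + 1) with 4 group means over all 8 libraries (4 residual degrees of freedom, prior with a mean trend). P-values are two-sided and Benjamini-Hochberg adjusted over the 9526 genes, with a threshold of 0.05. With 2 libraries against 2, an exact permutation test of 1 gene cannot go below 0.33, so none was used. Intervals and floors of reads cover counting error only. Replicates differed by more than the sampling noise (chi-square over degrees of freedom 6.73 to 10.5).

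The members and gene lists were chosen with earlier results of these data known. Named genes are FDX1 and 4 markers, the 12 largest rises and falls outside the interferon list with a group mean of at least 5 FPKM, up to 4 called members of each list with the smallest p, and a set of copper, stress and lineage genes, except a few that are not reported here. RASA4, MCM6, FEN1, NFKBIA, PLK1, HSP90AA1 and SQSTM1, and the members so described in the text, were named after their values were seen. The alternatives were 2 other scalings (RLE and TMM), 2 other pseudocounts (0.1 and 0.5), no filter, a mean of at least 5 FPKM, a fit to 4 libraries, no trend, a replicate block, voom on the recovered reads, and each control-cell library left out. Reads of near-identical or overlapping genes may be split between them, and the counting's use of strand is not given in the sources used here.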

Additional observations from a re-analysis of the deposited data

Results flagged for a closer look

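For 44 of the 195 named genes the ES response differed between the genotypes by the interaction test of the limma fit (adjusted p below 0.05 over 9526 genes, 3.65% of which passed). Most named genes were chosen by their response in control cells, so their share cannot be compared with that over all genes. Values below are the log2 change in FDX1-OE cells minus that in control cells. How the difference of each gene depends on single libraries was not tested, although the count over all genes did.

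Among the genes named by size, the difference was 1.34 for DHRS2, 1.26 for EBI3, 1.13 for SPNS3, 0.98 for BCL2A1 and 0.83 for ATF5, all of which rose more in FDX1-OE cells. DDN (-0.42) and FKBP4 (-0.29) fell more there. GPR89A differed by 1.69 (SE 0.34), with a change of -0.93 in control cells and 0.76 in FDX1-OE cells. Its 2 DMSO libraries of FDX1-OE cells lay far apart, at 5.15 and 2.13 FPKM, against 6.56 and 6.29 FPKM in ES. Its counts are uncertain because of near-identical copies, and its call in control cells was lost in some alternatives, as given above. FDX1 itself differed by 0.38, with -0.15 and 0.23.

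The difference passed for 14 of 27 NF-kB genes and 5 of 15 TNF family genes, and not for CD27 (-0.03, adjusted p = 0.873 by limma) or NFKBIA (0.39, adjusted p = 0.121). It was 1.60 for CCL22, 1.29 for TNFSF10, 0.77 for LTB, 0.71 for CD40, 0.61 for CD83 and 0.44 for BIRC3. In antigen presentation it was 1.09 for HLA-B, 0.66 for HLA-C, 0.56 for LGMN and 0.38 for RFX5, and in B-cell receptor signalling 0.68 for RASGRP3 and 0.42 for CD72.

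In the ATF4 list it passed for 11 of 27 genes, in the BCL2 family for 4 of 15 and among caspases and death effectors for 3 of 18. It did not pass for ATF4 (-0.11, adjusted p = 0.452 by limma), DDIT3 (0.51, adjusted p = 0.0543), BCL2L1 (0.22, adjusted p = 0.225) or CASP4 (-0.49, adjusted p = 0.0978). The difference was 0.69 for PPP1R15A, 0.64 for SESN2, 0.61 for WARS1, 0.37 for HERPUD1 and 0.33 for MTHFD2. It was 0.69 for TP53INP1, 0.56 for PMAIP1, 0.73 for ZBP1, 0.81 for DUSP5 and 0.78 for JUND. For the lysosome and autophagy genes it was 1.10 for CD68, 0.72 for SQSTM1, 0.41 for NEU1 and 0.38 for MAP1LC3B.

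It passed for 1 of 18 copper genes, CCS (0.53), for 3 of 19 iron genes, FTH1 (0.54) and PCBP1 (-0.30) among them. MT2A (0.06, adjusted p = 0.85 by limma), MT1X (0.40, adjusted p = 0.163) and TFRC (0.05, adjusted p = 0.775) did not pass. Larger falls in FDX1-OE cells were seen for PLK1 (-0.41), HSPA8 (-0.39), NOP16 (-0.38), HSP90AB1 (-0.36) and EIF4A1 (-0.35). SCD fell less there, with -0.43 in control cells and -0.08 in FDX1-OE cells (difference 0.36).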

How the results depend on the processing

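Of the 187 named genes called, 172 kept their direction and call in all 14 alternatives (genes that a stricter filter removed counted under the others). Among genes that did not pass, the log2 change turned sign for SLC31A1 (0.05 without control DMSO replicate 1, 0.035 without control ES replicate 2), MTF1 (0.016) and BCL6 (0.035) without control DMSO replicate 2, and SLC30A1 (-0.0027) without control ES replicate 1. With 1 library left out at a time it ranged from -0.1 to 0.05 for SLC31A1, -0.13 to 0.016 for MTF1, -0.17 to 0.035 for BCL6 and -0.0027 to 0.16 for SLC30A1. The cause was not tested.

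The causes of the following shifts were not tested, except where fewer genes were tested. With RLE scaling the falls were 14 in glycolysis, 18 in complexes II to V and 34 among cytosolic ribosomal proteins, and with TMM scaling 14, 18 and 35, with 22 translation factors. With a mean of at least 5 FPKM, which tests 7029 genes, the rises were 76 on the interferon list, 12 for NF-kB, 5 for the TNF family and 6 for caspases and death effectors. Without the filter, 193 genes passed the interaction test, and the falls were 8 in the proteasome, 5 in complex I, 7 in complexes II to V and 11 among cytosolic ribosomal proteins. Without the trend 176 genes passed the interaction test and 8 complex I genes fell, and voom on recovered reads gave 641 interaction genes.

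With 1 control-cell library left out at a time, the arm with 1 library is assumed to vary like the others. The count of genes lower then ranged from 829 to 952 and that of interaction genes from 64 to 548. Falls ranged from 4 to 5 in the ATF4 list, 4 to 6 for mitochondrial chaperones, 6 to 11 for polymerases I and III, 7 to 11 for translation factors, 8 to 11 for import, 4 to 14 for the proteasome, 6 to 11 for complex I, 7 to 12 for complexes II to V, 14 to 21 for mitochondrial ribosomal proteins, 7 to 25 for cytosolic ribosomal proteins and 6 to 8 for lipid synthesis. Lysosomal rises ranged from 9 to 11.

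The labels do not say whether the replicate numbers pair the samples. The deviations of same-numbered libraries were weakly correlated (-0.07 between control DMSO and control ES, and -0.19 to 0.2 over all 6 pairs of groups). This cannot exclude a pairing, since each deviation is taken from a mean of 2 libraries. With the replicate block 3761 genes were called, 2443 higher and 1318 lower, 456 passed the interaction test, and no named gene changed its call. At 33435438 reads or more per library, depth limits mainly genes near 3 reads. Changes common to all genes, such as total RNA per cell, cannot be seen in FPKM.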

Other observations

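Several further groups were measured in control cells, with shares to be read against 25.4% of all tested genes higher and 13.4% lower. Of 20 p53 targets 8 were higher and 2 lower (5 and 3 with RLE scaling, 5 and 4 with TMM scaling), among them DDB2, a sensor of DNA damage by ultraviolet light, which went from 15.5 and 16.9 to 25.9 and 25.9 FPKM (log2 change 0.65, adjusted p = 2.76e-05 by limma). Of 18 TCA cycle genes 5 were higher and 1 lower, or 3 and 3 with RLE scaling and 3 and 4 with TMM scaling, with IDH2, the mitochondrial NADP-dependent isocitrate dehydrogenase, rising from 82.8 and 87.9 to 121.2 and 109.2 FPKM and CS, the citrate synthase, falling from 330.6 and 327.8 to 264.3 and 283.7 FPKM. Nucleotide synthesis held 8 falls and 3 rises among 25 genes (10 and 1 with RLE or TMM scaling), including falls of PFAS, of purine synthesis, and DCTPP1, which clears modified cytidine triphosphates (log2 changes -0.47 and -0.44). Of 23 cytosolic aminoacyl-tRNA synthetases 7 were lower and 1 higher, and the rise was WARS1, which is on the interferon list (39.7 and 37.1 against 61.1 and 62.0 FPKM).

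In the unfolded protein response of the ER, 4 of 22 genes were higher and 4 lower (3 and 6 with RLE scaling, 3 and 7 with TMM scaling). HERPUD1, of ER-associated degradation, rose from 20.7 and 19.5 to 26.6 and 25.6 FPKM, while the ER chaperone HSPA5 fell from 235.0 and 229.1 to 190.4 and 200.1 FPKM and SDF2L1 from 95.8 and 95.8 to 65.2 and 57.3 FPKM. Of 27 NRF2 targets and antioxidant enzymes 6 were higher and 9 lower, or 1 and 12 with RLE or TMM scaling, with HMOX1 at 0 in both DMSO libraries and at 0.0576 and 0.0569 FPKM in ES, under the level of 3 reads of a gene of 1 kb. Among 8 plasma cell genes 3 were higher and 2 lower: JCHAIN, the joining chain of IgM and IgA, rose from 559.3 and 516.8 to 724.0 and 785.7 FPKM, and FKBP11 fell from 55.6 and 57.2 to 39.6 and 35.3 FPKM. Of 19 MHC class II genes 4 were higher and 3 lower (3 and 6 with RLE or TMM scaling), LGMN rising from 6.83 and 7.11 to 13.8 and 14.2 FPKM and HLA-DPB1 falling from 35.4 and 33.6 to 28 and 27 FPKM. Iron-sulfur cluster assembly held 4 rises and 5 falls among 21 genes (2 and 5 with RLE or TMM scaling).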
